A study of Arabidopsis thaliana with 8 samples.

Results

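The 33 genes XTH1 to XTH33 of Arabidopsis thaliana code for the xyloglucan endotransglucosylase/hydrolases, and they were taken by their loci. All 33 had a probe on the array, and 27 passed the filter on dim probes, among 25102 genes tested in all. RNA from leaves was hybridised to 8 Agilent 1-colour arrays when the plants were 54 days old. The transgenic plants carried 35S::Rap2.9-GFP, a fusion of the AP2/ERF transcription factor RAP2.9 to green fluorescent protein driven by the 35S promoter, which is active in most cell types. The other group was wild-type Col-0, the background of the transgenic line. There were 4 samples of each genotype, which the series text calls biological replicates, grown side by side without treatment. After stratification for 3 days at 7 °C, all plants had 20 days with 8 h of light and 34 days with 12 h of light. Light of 60 µmol per square metre and second, 22 °C by day and 18 °C by night are given for all samples. The labels do not say whether the transgenic samples came from a single line or several. The comparison asks which XTH transcripts change in leaves that overexpress RAP2.9.

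Xyloglucan is the main hemicellulose of the primary wall in plants such as Arabidopsis, where it binds to cellulose microfibrils. XTH enzymes cut a xyloglucan chain and join the new end to another chain, and some members transfer it to water instead, which shortens the polymer. Such cutting and rejoining takes place when walls loosen, expand or are reinforced, and many members are known to be switched on by hormones, touch, cold or growth. The family is divided by protein relatedness into group I (XTH1 to XTH11), group II (XTH12 to XTH26), group IIIA (XTH31 and XTH32, which include enzymes with hydrolase activity) and group IIIB (XTH27 to XTH30 and XTH33).

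Levels are given as the log2 processed signal of a probe minus the log2 of the 75th percentile of the same array, so 0 is the signal that 75% of the array's probes do not exceed. Probes differ in how strongly they bind, so the signals of different probes do not rank the transcripts of different members. A probe's signal is used below to sort probes into dim and bright and to choose probes and the members shown in full. Signals are also summed over the genes of some lists, and such a sum is weighted towards its brightest probes. The arrays had 72.5% to 84.3% of probes well above background, with the highest share on transgenic replicate 1. Their 75th percentile was 1724 to 2150 intensity units in the wild type and 1699 to 2576 in the transgenic leaves. Across probes, wild-type arrays had a Pearson's r of 0.986 to 0.99 with each other, transgenic arrays one of 0.969 to 0.99, and arrays of different genotype one of 0.955 to 0.984. Both probes for RAP2.9 (AT4G06746) differed between the genotypes, and they moved in opposite directions. One rose 17.7-fold in the transgenic leaves, at an adjusted p of 5.43e-06 in the limma fit of all probes, and the other fell 3.42-fold, with an adjusted p of 0.00115. Probe sequences are not used here, so the place of these probes relative to the transgene is unknown, and binding of one XTH transcript to the probe of a related member was not tested.

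In the transgenic leaves 11 of the 27 tested XTH genes were lower and 3 were higher at an adjusted p under 0.05 (limma, Benjamini-Hochberg over all genes tested), and 13 did not pass. Over all genes tested, 34.6% were called in either direction, 18.6% as higher and 16% as lower, against 11.1% of the tested XTH genes as higher and 40.7% as lower. The XTH loci were chosen with earlier results of these data known. A log2 fall of 1 or more was found for 7 XTH genes, against 2.3% of all genes tested. A log2 rise of 1 or more was found for 2 XTH genes, against 4.17% of all genes tested. The median log2 change of the 27 genes was -0.03, close to the 0.03 of all genes, and the largest falls were those of a few members. The fitted changes ran from -4.66 for XTH6 to 1.66 for XTH11, whose wild-type values lie partly at background. XTH11 met the filter only through its transgenic arrays. A filter on all 8 arrays left it out, and 2 XTH genes were then higher and 12 lower. With a floor at each array's lowest signal well above background, XTH11 changed by 1.03 and XTH29 by 1.07. For 12 of the 27 genes, 44.4%, the array values of the genotypes were fully separate, against 36.7% of all genes tested. With each array scaled to its own median instead, 3197 of all genes were higher and 5012 lower, where the main scaling gave 4657 and 4023, and the XTH counts were 3 and 12.

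The 6 members below the filter were XTH2 (AT4G13090), XTH3 (AT3G25050), XTH12 (AT5G57530), XTH14 (AT4G25820), XTH20 (AT5G48070) and XTH26 (AT4G28850). XTH2 and XTH3 were not well above background on any array. XTH12 and XTH14 were so on 1 wild-type array and 0 transgenic arrays, and XTH20 and XTH26 on 1 array of each genotype. XTH14 and XTH26 are known from root hairs, and XTH3 from work on cellulose as a substrate. No change is given for these 6 genes. Of the 27 tested genes, 25 were well above background on all 8 arrays, and the other two, XTH11 and XTH17, were so on 2 of the 4 wild-type arrays and on all 4 transgenic arrays.

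**Figure D1:**
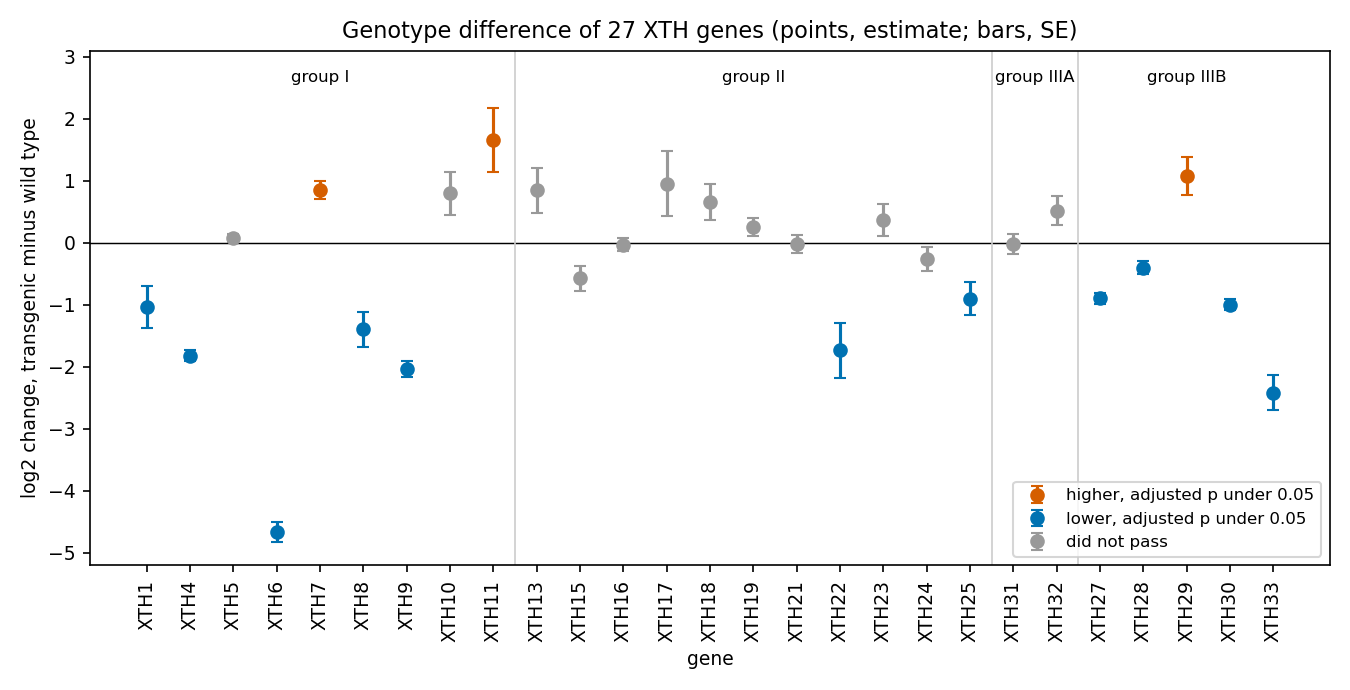
Log2 change (transgenic minus wild type, vertical axis) of the 27 tested XTH genes (horizontal axis), by family group. Points are limma estimates from 4 arrays per genotype and bars their SE. The 11 lower genes lie mainly in groups I and IIIB, where XTH6 at -4.66 stands far below the rest, while 9 of 11 group II genes did not pass.

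Group I had 9 tested members, of which 5 were lower, 2 higher and 2 did not pass, with a median log2 change of -1.03. These are 55.6% lower and 22.2% higher, beside 16% and 18.6% of all genes tested, so the higher share is near that of all genes. XTH6 (AT5G65730) had the largest fall of the family. On the log2 scale it was at 1.61, 1.24, 1.52 and 1.44 in wild-type replicates 1 to 4 and -3.13, -2.97, -3.68 and -3.06 in transgenic replicates 1 to 4. Every wild-type array lay above the 75th percentile of its own signals and every transgenic array far under it, although the probe was still well above background in all 8. The log2 change was -4.66 ± 0.16 (SE, n = 4 per genotype), a 25.4-fold fall, with an adjusted p of 5.86e-06. The 2 slides, each with 2 arrays of each genotype, gave log2 changes of -4.58 and -4.75.

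XTH4 (AT2G06850) and XTH9 (AT4G03210), both known from growing tissue and from the vascular cambium of stems, also fell. XTH4 had log2 levels of 3.23, 3.39, 3.47 and 3.31 in the wild type and 1.70, 1.48, 1.38 and 1.56 in the transgenic leaves. Its change was -1.82 ± 0.09 (SE), a 3.53-fold fall, with an adjusted p of 1.94e-05, and the slides gave -1.83 and -1.81. The replicates of each genotype lay within a narrow band and far apart from the other genotype.

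XTH9 had log2 levels of 3.28, 3.18, 3.39 and 3.22 in the wild type and 1.23, 1.55, 1.25 and 0.90 in the transgenic leaves. The change was -2.04 ± 0.13 (SE), a 4.1-fold fall, with an adjusted p of 6.94e-05, and the slides gave -2.11 and -1.96. Again no transgenic array came near a wild-type array. Each of these genes had a further, dimmer probe, and these moved alike, with a log2 change of -1.88 for XTH4 and -2.08 for XTH9.

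XTH8 (AT1G11545) had log2 levels of -1.44, -1.31, -2.14 and -1.96 in the wild type and -2.95, -2.74, -2.92 and -3.81 in the transgenic leaves. The lowest wild-type array lay above the highest transgenic array. The change was -1.39 ± 0.28 (SE), a 2.63-fold fall with an adjusted p of 0.00829, and the slides gave -1.49 and -1.30. With another background correction (normexp) XTH8 changed by -1.12 and did not pass, with an adjusted p of 0.0678, the highest of its alternatives, whose range began at 0.00195.

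XTH1 (AT4G13080) had log2 levels of -4.19, -4.40, -3.59 and -4.69 in the wild type and -4.83, -4.72, -5.98 and -5.47 in the transgenic leaves, so the closest arrays of the genotypes almost touched. Its change of -1.03 ± 0.34 (SE) passed narrowly, at an adjusted p of 0.0487. It no longer passed when any wild-type array or transgenic replicate 3 or 4 was left out, with changes of -1.19 to -0.79. The slides gave -1.2 and -0.86, and adjusted p-values ran from 0.0131 to 0.543 over the alternatives.

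XTH7 (AT4G37800) was the higher member of the group with the firmest call. It was at log2 levels of 1.93, 1.34, 1.32 and 1.37 in the wild type and 2.45, 2.20, 2.31 and 2.43 in the transgenic leaves. All transgenic arrays lay above all wild-type arrays, and wild-type replicate 1 stood apart from the other wild-type arrays on the high side. The change was 0.86 ± 0.15 (SE), a 1.81-fold rise with an adjusted p of 0.00395, and the slides gave 0.69 and 1.03.

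XTH11 (AT3G48580) was the other higher member, at very low signal, and it met the filter only through its transgenic arrays. It was at log2 levels of -7.43, -8.83, -6.59 and -6.46 in the wild type and -5.29, -5.41, -6.05 and -5.93 in the transgenic leaves. The genotypes did not overlap, but the wild-type arrays spread widely and 2 of them were not well above background. The change of 1.66 ± 0.52 (SE) had an adjusted p of 0.0416 and was lost without wild-type replicate 1 or without any transgenic array, with changes of 1.53 to 1.78. It was also lost with slide as a block (adjusted p of 0.0591), and with quantile normalization or the deposited table (1.2, adjusted p of 0.118). After normexp correction the change was 0.06, and adjusted p-values ran from 0.00593 to 0.991 over the alternatives.

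The 2 group I members that did not pass were XTH5 (AT5G13870) and XTH10 (AT2G14620). XTH5 was at -2.04 ± 0.04 (SD, n = 4) in the wild type and at -1.97 ± 0.11 (SD, n = 4) in the transgenic leaves. XTH10 changed by 0.80 ± 0.35 (SE), with an adjusted p of 0.114, and by 1.1 with an adjusted p of 0.0255 without wild-type replicate 3, within a range of 0.0255 to 0.954 over its alternatives. The slides gave 0.20 and 1.40 for XTH10.

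**Figure D2:**
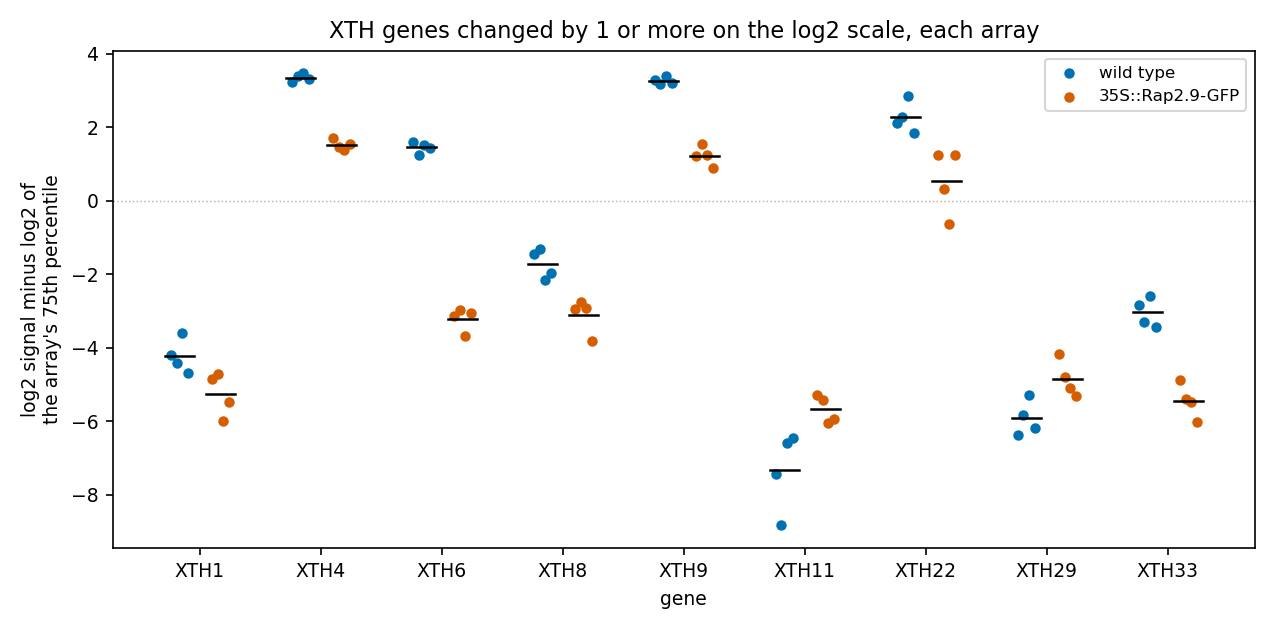
Log2 level (signal over the array's 75th percentile, vertical axis) of the 9 XTH genes called with a log2 change of 1 or more, on every array. Points are arrays, 4 per genotype, and lines are means. The genotypes are separate for every gene shown except XTH29, with the widest gaps for XTH6, XTH9, XTH4 and XTH33.

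Group IIIB had 5 members, all tested, of which 4 were lower and 1 was higher, with a median log2 change of -0.90. These are 80% lower and 20% higher, beside 16% and 18.6% of all genes tested, so here too the higher share is near that of all genes. XTH33 (AT1G10550), whose protein is anchored in the plasma membrane, had the second largest fall of the family. Its log2 levels were -2.82, -3.29, -2.58 and -3.42 in the wild type and -4.88, -5.39, -5.48 and -6.02 in the transgenic leaves. The gap between the genotypes was wider than the spread within either. The change was -2.42 ± 0.28 (SE), a 5.33-fold fall with an adjusted p of 0.00073.

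The XTH33 fall differed in size between the slides and between the background corrections. The slides, with 2 arrays of each genotype, gave -3.01 and -1.83, and the difference between them was not tested. After normexp correction the change was -1.42 and did not pass, at an adjusted p of 0.0943, the highest of its alternatives, which began at 9.69e-05.

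XTH27 (AT2G01850), known from the tracheary elements of small leaf veins, had log2 levels of 3.96, 4.01, 4.22 and 3.90 in the wild type and 3.00, 3.27, 3.21 and 3.03 in the transgenic leaves. Its change was -0.90 ± 0.09 (SE), a 1.86-fold fall with an adjusted p of 0.000501, and the slides gave -0.94 and -0.85. The genotypes were well apart, and a dimmer probe for XTH27 changed by -0.91.

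XTH30 (AT1G32170) fell from 0.46 ± 0.15 (SD, n = 4) to -0.54 ± 0.13 (SD, n = 4), a 1.99-fold fall with an adjusted p of 0.000333. No arrays of the genotypes overlapped. XTH28 (AT1G14720), known from the growth of stamen filaments, fell less, from 1.51 ± 0.04 (SD, n = 4) to 1.11 ± 0.20 (SD, n = 4), a 1.32-fold fall with an adjusted p of 0.0189. Here too the genotypes did not overlap, and transgenic replicate 2 lay below the other transgenic arrays. The slides gave -1.12 and -0.87 for XTH30, and -0.54 and -0.26 for XTH28. After normexp correction XTH28 did not pass, at an adjusted p of 0.102, the highest of its alternatives, which began at 0.00601. Before scaling, its median processed signal was 5329 in the wild type and 5853 in the transgenic leaves, so the fall appears only after scaling. The change of XTH28 was -0.40 with quantile normalization and -0.49 with median scaling.

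XTH29 (AT4G18990) was the higher member of this group. Its log2 levels were -6.36, -5.83, -5.29 and -6.18 in the wild type and -4.17, -4.79, -5.08 and -5.32 in the transgenic leaves, with the highest value on transgenic replicate 1. Wild-type replicate 3 overlapped the transgenic arrays. The change of 1.07 ± 0.31 (SE) had an adjusted p of 0.0315, and the slides gave 0.77 and 1.38. It did not pass without wild-type replicate 1, 2 or 4 or without transgenic replicate 1, 2 or 3, with changes of 0.85 to 1.15. After normexp correction it was 0.11, and adjusted p-values ran from 0.0177 to 0.981 over the alternatives.

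No member of group IIIA was called. XTH31 (AT3G44990), known as a hydrolase that acts in roots, had log2 levels of 0.44, -0.02, -0.11 and 0.50 in the wild type and 0.28, 0.02, 0.36 and 0.10 in the transgenic leaves. The transgenic arrays lay inside the wild-type range, and the change was -0.01 ± 0.16 (SE) with an adjusted p of 0.967. XTH32 (AT2G36870) changed by 0.52 ± 0.24 (SE), with an adjusted p of 0.128. At an unadjusted p under 0.05 there were also 0 higher and 0 lower genes among these 2 (limma), beside 24.6% and 20.8% of all genes tested.

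Group II, the largest of the family, had 11 tested members, of which 2 were lower and 9 did not pass, with a median log2 change of -0.02. The lower share of 18.2% is near the 16% of all genes tested, of which 18.6% were higher. No member was called higher, and 1 was higher and 3 were lower at an unadjusted p under 0.05 (limma), where all genes tested gave 24.6% and 20.8%. XTH22 (AT5G57560), also called TOUCH4 (TCH4) because its transcript rises after touch and likewise after brassinosteroid, heat or cold, had the largest fall of the group. Its log2 levels were 2.12, 2.30, 2.85 and 1.86 in the wild type and 1.25, 0.32, -0.62 and 1.24 in the transgenic leaves. All transgenic arrays were below all wild-type arrays, and transgenic replicate 3 was the lowest.

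The change of XTH22 was -1.74 ± 0.44 (SE), a 3.33-fold fall with an adjusted p of 0.0203, and the slides gave -1.71 and -1.77. Its SE was larger than that of XTH4, XTH6 and XTH9. It no longer passed without wild-type replicate 3, where the change was -1.55 with an adjusted p of 0.0546. After normexp correction the change was -1.70 with an adjusted p of 0.0505, within a range of 0.00596 to 0.0764 over the alternatives.

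XTH25 (AT5G57550) lies next to XTH22 on the chromosome and was the other lower member of group II. Its log2 levels were -1.70, -2.01, -1.10 and -1.30 in the wild type and -2.88, -2.22, -2.68 and -1.93 in the transgenic leaves. Transgenic replicate 4 overlapped the wild-type range. The change was -0.90 ± 0.27 (SE) with an adjusted p of 0.0358. The slides gave -0.67 and -1.13. It did not pass without wild-type replicate 1, 3 or 4 or without transgenic replicate 1, 2 or 3, with changes of -0.97 to -0.75, and adjusted p-values ran from 0.0141 to 0.11 over the alternatives.

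XTH24 (AT4G30270), also called MERI5 and known from meristems, had log2 levels of 3.34, 3.70, 3.82 and 3.24 in the wild type and 3.16, 3.60, 3.41 and 2.86 in the transgenic leaves. The genotypes overlapped broadly. The change was -0.27 ± 0.19 (SE) with an adjusted p of 0.318. It had 5 probes, with changes of -0.35 to -0.25, and none passed.

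XTH15 (AT4G14130) lay at -3.02 ± 0.17 (SD, n = 4) in the wild type and at -3.59 ± 0.41 (SD, n = 4) in the transgenic leaves. Its change of -0.57 ± 0.20 (SE) missed the threshold at an adjusted p of 0.0643. It passed in 7 alternatives, among them quantile normalization with -0.71 and an adjusted p of 0.0346 and the omission of transgenic replicate 2 with -0.72 and an adjusted p of 0.024, within a range of 0.024 to 0.76. A dimmer probe for XTH15 changed by 0.17 ± 0.88 (SE).

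The other 7 tested members of group II had log2 changes of -0.03 to 0.95. XTH16 (AT3G23730) changed by -0.03 ± 0.11 (SE) and XTH21 (AT2G18800), known from root growth, by -0.02 ± 0.14 (SE). XTH23 (AT4G25810) changed by 0.37 ± 0.26 (SE). XTH13 (AT5G57540), XTH17 (AT1G65310), XTH18 (AT4G30280) and XTH19 (AT4G30290) had values above 0, none of which passed, and the last 3 are known from roots. XTH13 changed by 0.85 with an adjusted p of 0.107 and XTH17 by 0.95 with an adjusted p of 0.195. XTH18 changed by 0.66, with 1.39 on one slide and -0.07 on the other, and XTH19 by 0.25, with 0.53 and -0.03.

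Among members with a dim signal, the values leaned upward in both the family and the whole table. For the 8 XTH genes with a mean log2 level under -4, the median log2 change was 0.82, with 2 higher (25%) and 2 lower (25%). XTH11 and XTH17 among them met the filter only through their transgenic arrays, being well above background on 2 of the 4 wild-type arrays. Such genes were tested because they were high in the transgenic leaves, so this median is no support for a rise of dim members. Over all 5948 genes in that range the median was 0.20, with 13.8% higher and 5.62% lower. For the 4 XTH genes at a mean level of 2 or more (XTH4, XTH9, XTH24 and XTH27), the median was -1.36, with 0 higher and 3 lower (75%). Over all 2782 genes in that range the median was -0.03, with 18.4% higher and 24.1% lower. Transgenic replicate 1, the array with the largest share of probes above background, had the highest transgenic level for 6 of the 8 genes under -4 (XTH10, XTH11, XTH13, XTH17, XTH29 and XTH33) and for 5 of the other 19 tested members. Without it XTH10 changed by 0.60, XTH13 by 0.53 and XTH17 by 0.49, which had not passed with it either, and the calls of XTH11 (1.53) and XTH29 (0.85) were lost.

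Under normexp, which models the background on each array and adds an offset of 50, the 6 XTH genes called were XTH4, XTH6, XTH9, XTH27 and XTH30 as lower and XTH7 as higher. These 6 passed in the same direction under every alternative run, those that leave out 1 array included. Over all genes, normexp called 1285 as higher and 1492 as lower, so it gave fewer calls there too. None of the 14 called XTH genes turned direction under any alternative.

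**Figure D3:**
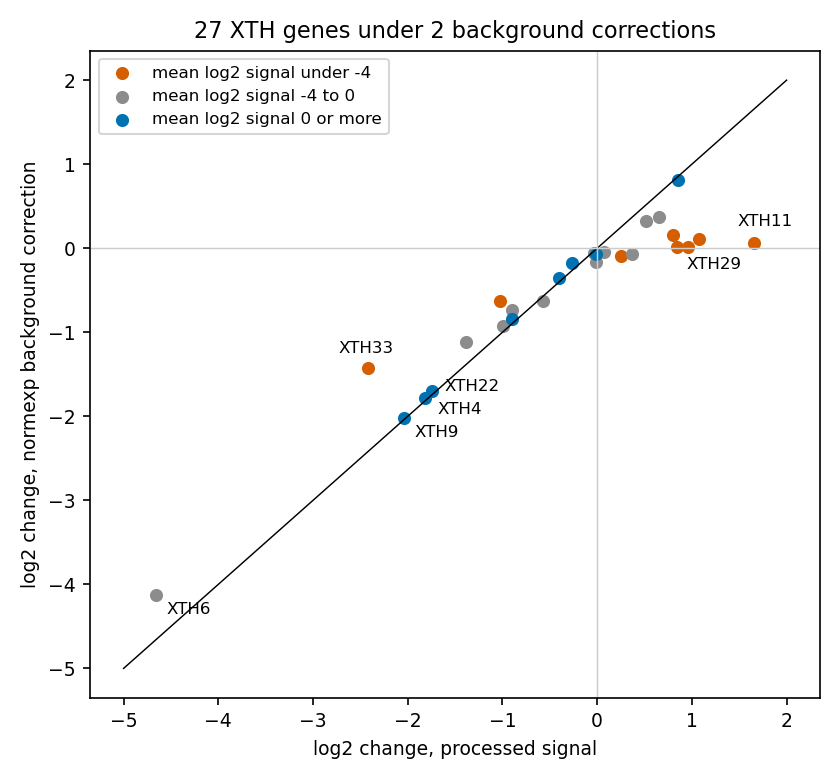
Log2 change of the 27 tested XTH genes with the scanner software's processed signal (horizontal axis) and after normexp background correction (vertical axis). The diagonal marks equal values, and colour marks the mean log2 level. Genes at 0 or more lie close to the diagonal, while dim genes lie nearer to 0 after normexp, as with XTH11 (1.66 and 0.06), XTH29 (1.07 and 0.11) and XTH33 (-2.42 and -1.42).

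By the order of loci in the gene table, 11 of the family's genes lie in 4 chromosomal clusters. In the cluster with XTH22, the order is XTH12, XTH13, XTH25 and XTH22, with 1 other gene between XTH12 and XTH13. XTH13 had log2 levels of -6.33, -5.91, -6.12 and -5.47 in the wild type and -4.17, -5.04, -5.41 and -5.83 in the transgenic leaves. The values overlapped and leaned upward, while those of its neighbour XTH25 leaned downward. XTH12 stayed below the filter, with log2 signals of -7.50, -8.05, -7.42 and -6.98 in the wild type and -6.24, -7.18, -8.26 and -8.26 in the transgenic leaves.

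Of 7 neighbouring pairs, 4 had both members tested, and the difference between their changes was tested with an exact two-sided permutation test over the arrays, whose smallest possible p is 0.0286. The change of XTH13 exceeded that of XTH25 by 1.75, with an exact p of 0.0286, the smallest the test can give, and 0.114 after adjustment over the 4 pairs. XTH25 and XTH22, which both fell, differed by 0.84, with an exact p of 0.2. With 4 pairs, a single pair at the smallest exact p adjusts to 0.114, so this test could not have called any pair alone at 0.05. It says nothing on whether XTH13 and XTH25, or the members of the other pairs, differ.

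The cluster of XTH24, XTH18 and XTH19 had no called member. XTH18 had log2 levels of -3.26, -2.27, -2.84 and -2.49 in the wild type and -2.26, -1.58, -2.66 and -1.74 in the transgenic leaves, which overlapped. XTH19 had log2 levels of -5.03, -4.96, -5.04 and -4.65 in the wild type and -4.66, -4.42, -5.01 and -4.57 in the transgenic leaves, which also overlapped. The changes of XTH24 and XTH18 differed by -0.92 (exact permutation p of 0.0857, adjusted 0.171) and those of XTH18 and XTH19 by 0.40 (exact permutation p of 0.143, adjusted 0.19). XTH2, the neighbour of XTH1, had log2 signals of -8.27, -8.94, -9.14 and -8.10 in the wild type and -6.42, -8.49, -9.0 and -8.90 in the transgenic leaves, none of them well above background.

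**Figure D4:**
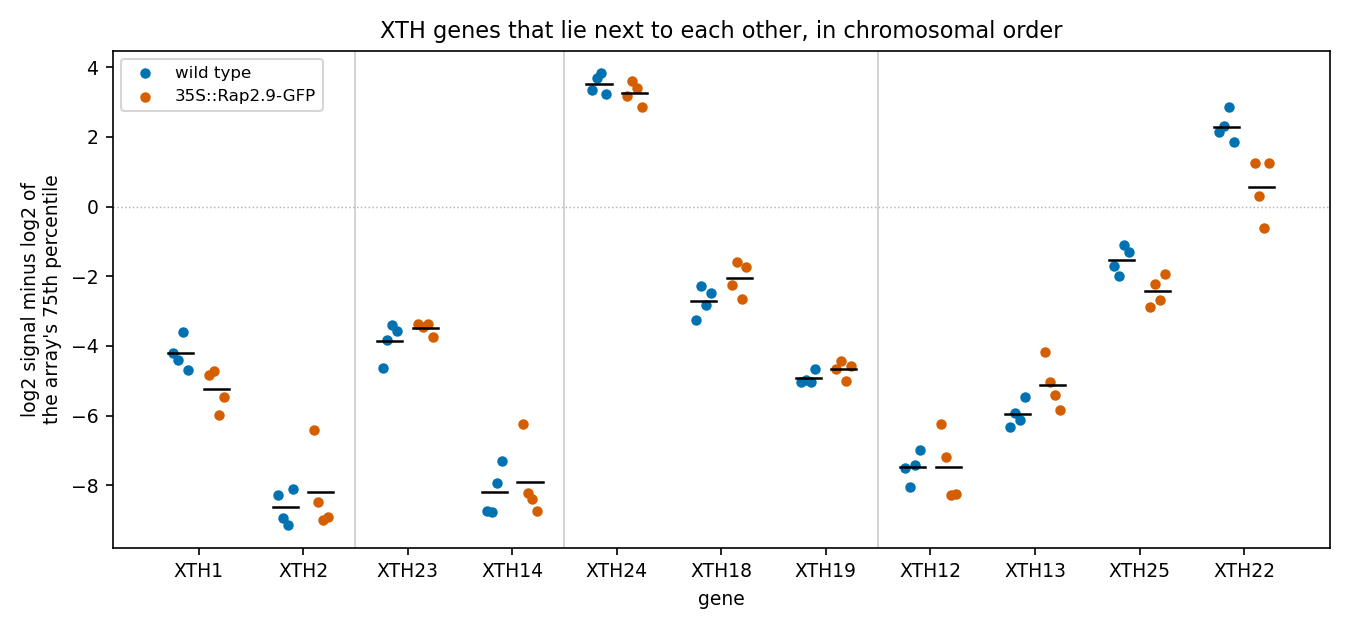
Log2 level (signal over the array's 75th percentile, vertical axis) of the 11 XTH genes in chromosomal clusters, which vertical lines separate, on every array. Points are arrays, 4 per genotype, and lines are means. XTH1, XTH25 and XTH22 are lower in the transgenic leaves, while XTH2, XTH12 and XTH14 were below the filter and their points carry no call.

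Among the genes that build xyloglucan, a list chosen with earlier results of these data known, more fell than rose. Of 16 genes of synthesis, 15 were tested, of which 8 were lower, 1 was higher and 6 did not pass, with a median log2 change of -0.47, beside the 16% lower and 18.6% higher of all genes tested. CSLC4 (AT3G28180), a synthase of the glucan backbone, had log2 levels of 2.6, 2.73, 2.86 and 3.08 in the wild type and 1.33, 1.28, 0.94 and 1.15 in the transgenic leaves. It fell 3.12-fold, with a change of -1.64 ± 0.13 (SE) and an adjusted p of 0.000138. The lowest wild-type array was well above the highest transgenic array.

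XLT2 (AT5G62220), a galactosyltransferase that decorates the side chains, had log2 levels of 1.53, 1.13, 1.14 and 1.2 in the wild type and -0.19, -0.36, -0.33 and -0.36 in the transgenic leaves. It fell 2.95-fold, with a change of -1.56 ± 0.10 (SE) and an adjusted p of 6.94e-05. Both genotypes kept to a narrow range, far apart from each other. XXT1 (AT3G62720), a xylosyltransferase that starts the side chains, changed by -0.80 ± 0.15 (SE) with an adjusted p of 0.00688.

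The other lower genes of synthesis were the galactosyltransferase gene MUR3, the xylosyltransferase genes XXT2 and XXT5 and the backbone synthase genes CSLC5 and CSLC12, with log2 changes of -0.62 to -0.47. The higher one was XXT3 (AT5G07720), with 0.69 ± 0.12 (SE) and an adjusted p of 0.00445. The fucosyltransferase gene FUT1, for which transgenic replicate 4 was dropped as an outlier spot, changed by 0.18 and did not pass. The summed signal of the 15 genes, in multiples of the array's 75th percentile, was 21.9 to 24.2 in the wild type and 11.9 to 14.2 in the transgenic leaves. The low end of 11.9 is that of transgenic replicate 4, whose sum lacks FUT1 and is too low for that reason. On the other transgenic arrays FUT1 had log2 levels of 0.94, 1.02 and 0.96.

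**Figure D5:**
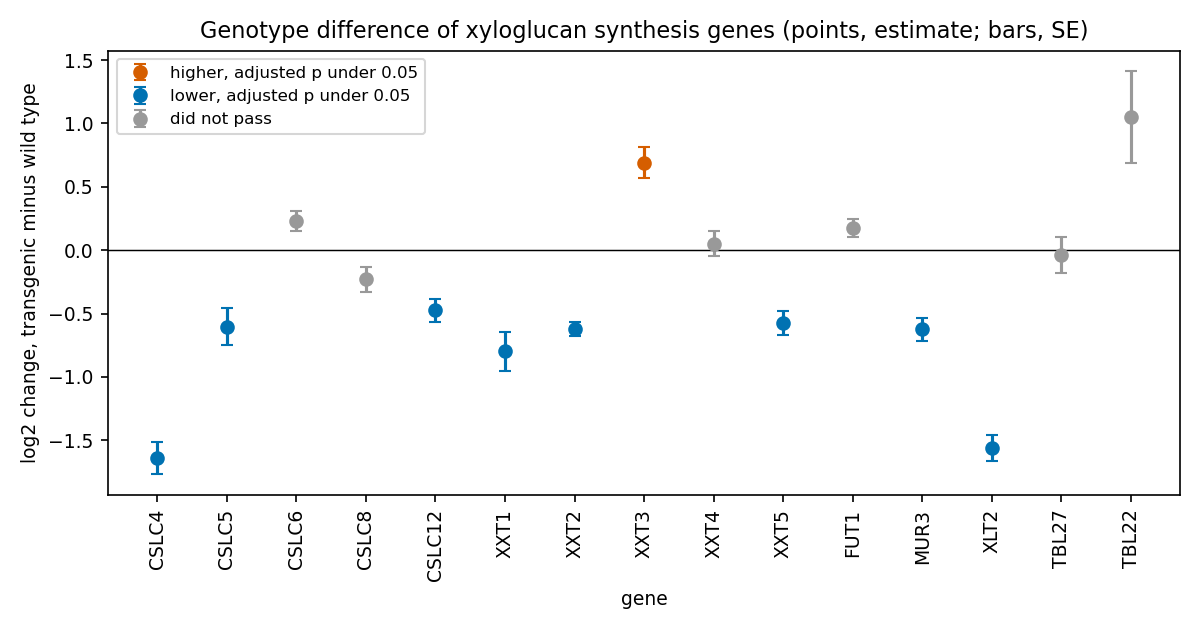
Log2 change (transgenic minus wild type, vertical axis) of the 15 tested genes of xyloglucan synthesis (horizontal axis). Points are limma estimates and bars their SE. The 8 lower genes run from -1.64 for CSLC4 to -0.47 for CSLC12, and XXT3 at 0.69 is the higher one.

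Among 5 genes of enzymes that trim xyloglucan in the wall, 1 was higher, 1 was lower and 3 did not pass. These shares of 20% each are near the 18.6% and 16% of all genes tested. The beta-galactosidase gene BGAL10 (AT5G63810) changed by -0.44 ± 0.07 (SE) with an adjusted p of 0.00253. The alpha-xylosidase gene XYL1 (AT1G68560) changed by 0.30 ± 0.09 (SE) with an adjusted p of 0.0444. The call for XYL1 did not hold with slide as a block, and that count was 0 without wild-type replicate 2, 3 or 4 or transgenic replicate 1, 3 or 4, and 2 without wild-type replicate 1.

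The touch genes that code for calmodulins or their relatives, CAM2, CML24 (TCH2) and CML12 (TCH3), were set beside XTH22. None was called, and 0 were higher and 1 was lower at an unadjusted p under 0.05 (limma), beside 24.6% and 20.8% of all genes tested. CML24 (AT5G37770) had log2 levels of 2.63, 2.39, 2.68 and 2.58 in the wild type and 2.40, 2.17, 1.62 and 2.33 in the transgenic leaves. Its lowest array was transgenic replicate 3, which was also the lowest for XTH22, and its change of -0.44 ± 0.17 (SE) had an adjusted p of 0.0858. CML12 (AT2G41100) changed by -0.17 ± 0.29 (SE) and CAM2 (AT2G41110) by -0.05 ± 0.09 (SE).

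In whole leaves, fewer cells of a type and less RNA per cell cannot be told apart. Of the markers of other cells and organs, 5 of 5 xylem genes and 4 of 4 guard cell genes were higher in the transgenic leaves. So were 2 of 2 root genes and 2 of 2 tested flower organ genes, while 2 of 4 phloem genes were lower. Of all genes tested, 18.6% were higher and 16% lower, and these short lists were chosen with earlier results of these data known. The summed xylem signal, in multiples of the array's 75th percentile, was 0.633 to 1.57 in the wild type and 1.58 to 2.46 in the transgenic leaves. The summed guard cell signal was 1.66 to 2.1 and 2.52 to 2.72, and the phloem signal 17.2 to 20.7 and 13.1 to 15.7. The lower phloem genes were SWEET11 and SWEET12, with log2 changes of -0.61 and -0.31, while SUC2 (-0.19) and APL (-0.14) did not pass. None of 6 mesophyll genes was called, none was so at an unadjusted p under 0.05 (limma), and their sum was 809 to 951 and 807 to 1077. Root genes summed to 0.0804 to 0.169 and 0.349 to 1.12, and flower organ genes to 0.0503 to 0.116 and 0.153 to 0.264. None of 2 tested trichome genes was called, also at an unadjusted p under 0.05, and none of 3 seed genes passed the filter. The probes for GL1 and AP3, markers of trichomes and flower organs, were not well above background on any array, and the seed markers CRU1, CRU3 and SESA3 were so on 1 or 2 of the 8 arrays. The part of these cells and organs in the XTH results was not tested.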

How the data were processed

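Leaf RNA of 8 samples, 4 of each genotype as given by the labels, was labelled with Cy3 and hybridised to 1 array each. The deposited scanner files give an intensity for each spot of array design 021169. Per the file headers, they come from Feature Extraction 11.5.1.1, whose processed signal has the background of the array subtracted. The authors also deposited a table of log2 values, whose normalization no source used here gives. By comparison with the scanner values its probes were centred, with r of 0.658 (transgenic replicate 1) to 0.969, and higher meant brighter. The median of each column was, in wild-type replicate order, 0.00151, 0.0116, -0.00355 and 0.00411, and, in transgenic order, -0.0146, -0.00404, -0.00252 and 0.00185.

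The values analysed were the log2 processed signal minus the array's 75th percentile. Of 45220 spots, 1417 controls were left out, as were 25 to 63 outlier spots per array. A probe was tested if well above background on at least 4 of 8 arrays, and the brightest tested probe stood for a gene. Of 43603 probes, 34348 were matched to loci through RefSeq transcript names (TAIR10.1), and the rest were tested under their own names. The array header names another build label, so no positions are given. The test was limma's, version 3.58.1 in R 4.3.3, with jsonlite 2.0.0 and the package data.table (version 1.17.8) for reading. It ran lmFit and eBayes, two-sided, with Benjamini-Hochberg adjustment over 25102 genes and a threshold of 0.05. The fit was tested on simulated data.

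The XTH loci and all gene lists were chosen with earlier results of these data known, and the tests of neighbouring pairs after the data were seen. All 33 XTH genes are named. Values on every array are given for called genes with a log2 change of 1 or more, for the member with the brightest wild-type signal in each group and for their neighbours in a cluster, with XTH7, CSLC4, XLT2 and CML24 shown in the same way. From other lists up to 4 called members with the largest change were named, or up to 2 with the smallest p, and other genes were named after their values were seen.

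Alternatives were normexp, quantile and median scaling, the deposited values, other filters, outlier spots kept, probe means, slide and replicate blocks, array weights, a variance trend, a floor and leaving out each array. Normexp used the median spot signal in place of the mean signal first planned. Same-numbered samples of the genotypes deviated with r of 0.156, -0.0962, -0.324 and 0.277. The same number was the best match for wild-type replicates 1 and 4, but not for 2 and 3. Same-numbered samples always lay on different slides, so these values cannot exclude a pairing. The labels state none, and numbers were not taken to pair plants in the main fit.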

Additional observations from a re-analysis of the deposited data

Results flagged for a closer look

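In 2 of 54 sets of 4 arrays (27 XTH genes in 2 genotypes), 1 array stood apart from the other 3 by more than Dixon's 95% critical value allows for the ratio of the gap to the nearest array over the whole range. Chance marks about 1 in 20 such sets. XTH7 in wild-type replicate 1 had a log2 level of 1.93, with the nearest wild-type array at 1.37 and a ratio of 0.919. It lay on the side of the transgenic arrays. XTH28 in transgenic replicate 2 had a log2 level of 0.805, with the nearest transgenic array at 1.18 and a ratio of 0.856. It lay on the side away from the wild type.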

How the results depend on the processing

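The count of higher XTH genes, 3, was 1 after normexp and without a filter on dim probes, and ran from 1 to 4 when an array was left out, with 1 without wild-type replicate 1 or transgenic replicate 1, 2 or 3 and 4 without wild-type replicate 3. The count of lower XTH genes, 11, was 5 after normexp and ran from 8 to 11 when an array was left out. Of all genes, normexp called 1285 as higher and 1492 as lower. With the replicate block, 2 XTH genes were higher and 8 lower, 9 of them among the 14 called and the other being XTH18, and all genes gave 4020 and 2968. With slide as a block, 2 XTH genes were higher and 11 lower, the call lost being XTH11. The higher genes of synthesis, 1, were 0 after normexp, 2 with the deposited table, the filter on all 8 arrays, outlier spots kept, slide as a block, array weights or a variance trend, and 1 to 2 when an array was left out. The higher genes of trimming, 1, were 0 after normexp, median scaling, no filter or slide as a block, 2 with array weights, and 0 to 2 when an array was left out. The lower touch genes, 0, were 1 with median scaling or a variance trend. Without a filter the median change of all genes moved from 0.03 to 0.13.

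Of the genes that turned direction, none was called. XTH5 was at -0.0399 after normexp and -0.0113 with median scaling, XTH19 at -0.0943 after normexp, -0.0751 with quantile normalization and -0.0726 with the deposited table, and XTH23 at -0.0708 after normexp. XTH21 was at 0.000879 with array weights, and ran from -0.113 to 0.077 when an array was left out, above 0 without wild-type replicate 2 or 3 or transgenic replicate 4. XTH16 ran from -0.13 to 0.0375, above 0 without transgenic replicate 4, and XTH31 from -0.115 to 0.0887, above 0 without wild-type replicate 1 or 4 or transgenic replicate 2 or 4. The cause of these shifts was not tested. Signal over background limits the members under a mean log2 level of -4.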
